A study of Mus musculus with 6 samples.

Results

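The genes described here encode growth, angiogenic and urokinase factors that macrophages secrete or carry on their surface: Plau and Plaur of the urokinase system, Pdgfa, Pdgfb, Vegfb, Igf1, Hgf and Tgfb1 among the growth factors, and the matricellular proteins Thbs1 and Spp1. These 10 genes were taken by name, with earlier results of these data known. All 10 had a probe set, 1 each, among the 25206 probe sets of the arrays. The samples were bone marrow-derived macrophages of mouse, grown from marrow, in 2 groups of 3 arrays. The JG-98 group was treated for 16 hours with the Hsp70 inhibitor JG-98, at an amount that the labels give as 0.3 micromole. Hsp70 proteins are chaperones that bind unfolded proteins. The Control group was untreated, and no vehicle, strain, sex or age is given for either group. Whether the arrays of a group stand for different mice or cultures is not given, and the p-values therefore measure a spread that may be technical only. No tumour cells were present, so the values describe macrophages alone.

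Macrophages in tumours and healing wounds are known to supply factors of this kind to neighbouring cells. Urokinase, held at the cell surface by its receptor, turns plasminogen into plasmin, which digests matrix and releases or activates stored growth factors. The PDGF, VEGF, IGF and HGF ligands act through receptor tyrosine kinases, while TGF-beta is secreted in a latent form and signals through serine/threonine kinase receptors. Thrombospondin-1, the product of Thbs1, restrains the growth of vessels and can activate latent TGF-beta, and osteopontin, the product of Spp1, binds integrins and CD44.

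The labelled cell type was borne out by its markers. All 11 measured of 12 listed macrophage markers lay at mean log2 levels of 8.36 to 12.0, while array medians lay between 4.08 and 4.24. None of the 10 neutrophil markers, 1 of 10 megakaryocyte markers (Pf4) and 1 of 11 stromal markers (Acta2) reached a mean log2 level of 5. Of 8 endothelial markers, Kdr and Vwf did. The mean log2 level of the macrophage markers was 10.27 to 10.35 on the JG-98 arrays and 10.37 to 10.41 on the Control arrays. Of these 11 markers, 1 was higher and 5 were lower on all JG-98 arrays than on any Control array. Over all probe sets, these shares were 7.12% and 8.44%. The median difference of the 11 markers was -0.07. C1qa was called lower with the intensity trend and with the filter at a mean level of 6, both described below. The mean log2 level of the endothelial markers was 3.84 to 3.97 on the JG-98 arrays and 3.76 to 3.87 on the Control arrays. Of these 8 markers, 2 were higher and 0 were lower on all JG-98 arrays than on any Control array. The part of the macrophage and endothelial marker shifts in the results was not tested. JG-98 replicate 3 stood apart from the other arrays, with correlations across probe sets of 0.992 to 0.9935 and the lowest array weight in limma, 0.334, against 0.915 to 2.36 for the others. Values are log2 expression as the authors deposited them, and levels of different genes are not set against each other.

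With JG-98, Plaur, Plau, Pdgfa and Spp1 had higher values on all 3 JG-98 arrays than on any Control array, and Thbs1 and Hgf had lower ones. In the other 4 genes, Pdgfb, Vegfb, Igf1 and Tgfb1, the groups overlapped. None of the differences passed the test over all probe sets (limma, Benjamini-Hochberg adjusted p under 0.05), which called 10 probe sets or 0.0397%. At an unadjusted p under 0.05 there were 6 of the 10 genes, beside 8.32% of all probe sets (4 higher, beside 3.84%, and 2 lower, beside 4.48%). Groups that do not overlap were likewise seen in 6 of the 10, beside 15.6% of all probe sets. Of these, 4 were higher, beside 7.12%, and 2 lower, beside 8.44%. Because the 10 genes were chosen with earlier results of these data known, these shares do not test whether they differ from other genes. None of the 10 had a mean level under the array medians, whereas all probe sets include such dim ones. The median difference of the 10 genes was 0.08 on the log2 scale, beside 0.00080 over all probe sets. In such bulk samples, fewer cells that make a transcript and less transcript per cell cannot be told apart.

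**Figure D1:**
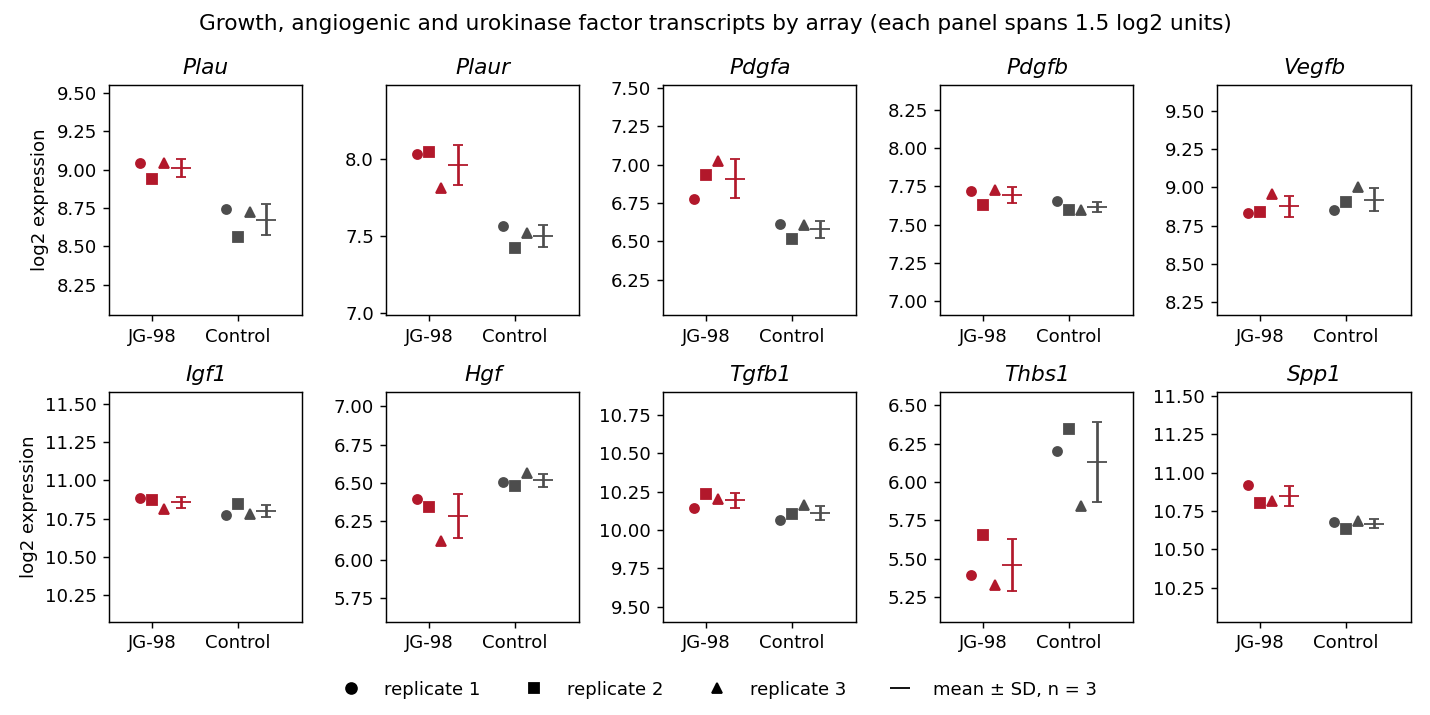
Log2 expression of each gene (vertical axis, 1.5 log2 units in every panel) on the 3 JG-98 arrays in red and the 3 Control arrays in grey. Symbols give the replicate, and the bar beside them is the mean ± SD (n = 3). The groups lie fully apart for Plau, Plaur, Pdgfa, Hgf, Thbs1 and Spp1 and overlap for the other 4 genes.

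Plaur, the urokinase receptor, which is tethered to the membrane by a lipid anchor, had log2 values of 8.03, 8.05 and 7.82 on the JG-98 arrays, against 7.56, 7.42 and 7.52 on the Control arrays. The groups were separated by 0.25 between the lowest JG-98 and the highest Control array, and JG-98 replicate 3 was the lowest of its group. The log2 difference was 0.46 ± 0.089 (SE, n = 3 per group), a ratio of 1.38 with a 95% interval of 1.19 to 1.60. It had the smallest p of the 10 genes, yet did not pass (limma adjusted p = 0.28). Without JG-98 replicate 3 the difference was 0.54, and over all arrays left out in turn it lay between 0.42 and 0.54.

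Plau, the gene of urokinase itself, had log2 values of 9.05, 8.94 and 9.04 on the JG-98 arrays and 8.74, 8.56 and 8.72 on the Control arrays. Control replicate 2 was the lowest array for Plau, as it was for Plaur, and the gap between the groups was 0.20. The log2 difference was 0.33 ± 0.078 (SE, n = 3 per group), a ratio of 1.26 with a 95% interval of 1.11 to 1.43 (limma adjusted p = 0.36). The receptor and its ligand were higher side by side on each of the 3 JG-98 arrays. These 2 genes passed when limma's prior followed the intensity of the probe sets (adjusted p = 0.022 for Plaur and 0.033 for Plau). They also passed when only the 8064 probe sets with a mean level of 6 or more were tested (adjusted p = 0.021 and 0.030). The background of calls was also higher there, 1.01% of probe sets with the trend and 4.77% with the filter.

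Differences were smaller among the other genes of plasminogen activation that are named here. Of 17 measured, 0 passed in limma, and their median log2 difference was 0.05. An unadjusted p under 0.05 was seen in 0, beside 8.32% of all probe sets. Plat, the tissue-type activator, differed by 0.17 ± 0.094 on the log2 scale (SE) and Serpinb2, a serine protease inhibitor, by 0.23 ± 0.14, both at levels where background is not excluded. Lrp1, an endocytic receptor that clears urokinase from the cell surface, had log2 means of 9.83 with JG-98 and 9.73 in the Control group, and its difference was 0.10 ± 0.067, without overlap of the groups. The plasminogen-binding Anxa2 differed by 0.04 ± 0.070, and Itgam, an integrin that partners the urokinase receptor, by -0.05 ± 0.064.

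The window of 250 bases before the Plaur start site, at chr7:24462233-24462482 on the plus strand, is shown because this gene had the smallest p. Capitals mark an AP-1 motif (TGANTCA), which begins 69 bases before the start, and 3 adjoining or overlapping GC boxes (GGGCGG). These begin 111, 105 and 100 bases before the start. Sequence, here and for the other genes, is from RefSeq, build GRCm38.p6.
Plaur: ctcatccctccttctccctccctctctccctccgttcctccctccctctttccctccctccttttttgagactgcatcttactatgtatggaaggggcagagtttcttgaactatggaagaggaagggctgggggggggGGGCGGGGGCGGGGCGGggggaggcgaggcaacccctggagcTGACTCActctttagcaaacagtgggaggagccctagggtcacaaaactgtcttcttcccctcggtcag
Both strands were searched, and 6.75% of 32851 promoter windows of this length hold the AP-1 letters and 32.7% the GC box. Windows were found for 7 of the 10 genes. Plau, Thbs1 and Pdgfb had none. The AP-1 letters were also found before Igf1, 37 bases from the start, a gene whose groups overlapped. GC boxes were also found before Tgfb1 and Vegfb, whose groups overlapped as well. Neither the C/EBP-ATF letters TGATGNAA nor the E-box CACGTG occurred in any window of the 7 genes, and 3.45% and 6.02% of all windows hold them. The heat shock letters GAANNTTC, held by 6.69% of all windows, occurred once, before Pdgfa.

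**Figure D2:**
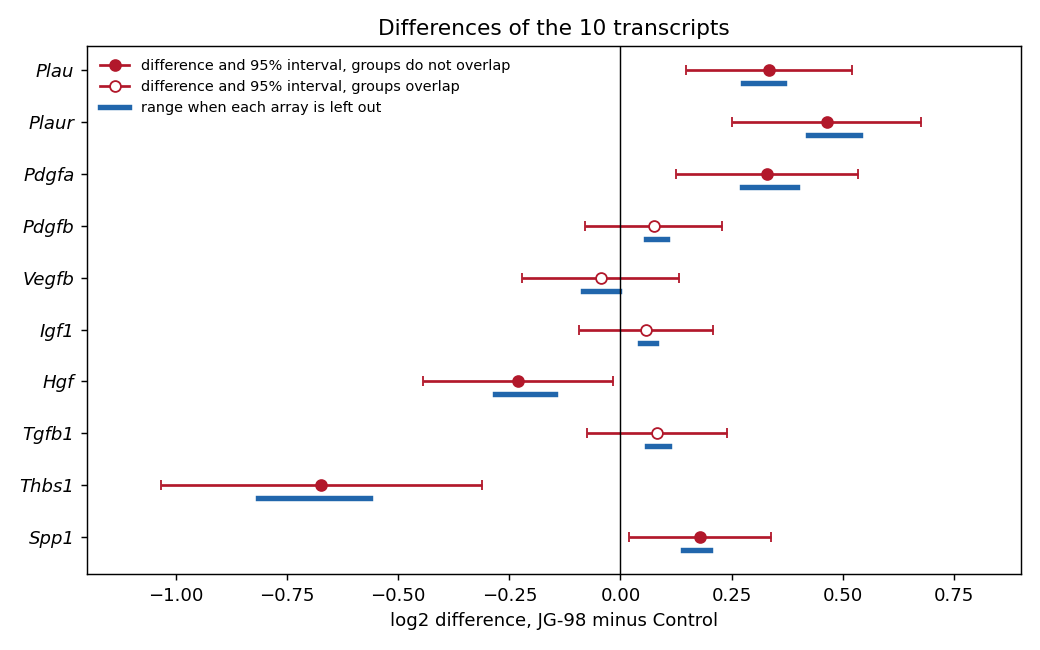
Log2 difference of each gene, JG-98 minus Control (horizontal axis), with its 95% interval from limma (red) and the range when each array was left out in turn (blue). Filled points are genes whose groups do not overlap. The intervals of Plau, Plaur, Pdgfa, Spp1, Hgf and Thbs1 do not reach 0, before adjustment over all probe sets.

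Among the platelet-derived growth factors, which drive the growth of fibroblasts and pericytes, the A and B chains differed in their separation. Pdgfa had log2 values of 6.77, 6.93 and 7.02 on the JG-98 arrays, against 6.61, 6.52 and 6.61 on the Control arrays. All JG-98 arrays were above all Control arrays, with JG-98 replicate 3 the highest. The log2 difference was 0.33 ± 0.085 (SE, n = 3 per group), a ratio of 1.26 with a 95% interval of 1.09 to 1.45 (limma adjusted p = 0.40). It was 0.27 without JG-98 replicate 3. Pdgfa passed among the probe sets with a mean level of 6 or more (adjusted p = 0.043) and not with the intensity trend (adjusted p = 0.10). Pdgfb had log2 values of 7.72, 7.63 and 7.73 with JG-98 and 7.65, 7.60 and 7.60 in the Control group. JG-98 replicate 2 lay below Control replicate 1, so the groups overlapped, and the difference was 0.08 ± 0.064 with a 95% interval of -0.08 to 0.23.

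A further ligand of the family, Pdgfc, was lower with JG-98. Its log2 values were 7.01, 7.10 and 6.88 on the JG-98 arrays and 7.53, 7.51 and 7.47 on the Control arrays. The groups did not overlap, and the log2 difference was -0.51 ± 0.077 (limma adjusted p = 0.19), which passed with the intensity trend (adjusted p = 0.010). Thus, Pdgfa lay above and Pdgfc below the Control arrays in the same samples. The receptor genes Pdgfra and Pdgfrb, of mesenchymal cells, were at log2 means of 2.47 and 3.35 with JG-98 and 2.33 and 3.14 in the Control group, below the array medians.

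The window before the upstream of 2 listed Pdgfa start sites, at chr5:138994945-138995194 on the minus strand, is shown because Pdgfa was the growth factor with the smallest p of the 10 genes. Its capitals mark 2 GC boxes on the opposite strand, which begin 93 and 86 bases before the start.
Pdgfa: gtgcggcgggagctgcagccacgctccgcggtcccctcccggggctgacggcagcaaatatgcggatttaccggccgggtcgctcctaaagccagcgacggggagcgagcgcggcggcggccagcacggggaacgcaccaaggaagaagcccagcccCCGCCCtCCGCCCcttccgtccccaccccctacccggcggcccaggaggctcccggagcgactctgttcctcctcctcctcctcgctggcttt
The window before the other start site held 1 GC box, 60 bases before it, and the heat shock letters, 188 bases before it.

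Vegfb, a VEGF family ligand of the receptor Flt1, showed no separation. Its log2 values were 8.83, 8.84 and 8.95 on the JG-98 arrays and 8.85, 8.91 and 9.001 on the Control arrays. The difference was -0.04 ± 0.074 with a 95% interval of -0.22 to 0.13, a ratio of 0.858 to 1.10. Its relative Vegfa, the main driver of vessel growth, had log2 values of 7.59, 7.67 and 7.49 with JG-98 and 6.98, 7.00 and 6.97 in the Control group. The groups did not overlap, and Vegfa had the smallest p of the 23 other growth factor ligands (limma adjusted p = 0.13, and 0.0035 with the intensity trend). Flt1 had a log2 mean of 5.36 ± 0.14 with JG-98 and 5.17 ± 0.13 in the Control group (SD, n = 3 each), and the co-receptor Nrp1 differed by 0.04 ± 0.066.

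Igf1, insulin-like growth factor 1, which macrophages make in repair and which promotes survival, had log2 values of 10.88, 10.87 and 10.81 on the JG-98 arrays and 10.77, 10.84 and 10.78 on the Control arrays. JG-98 replicate 3 lay below Control replicate 2, so the groups overlapped. The difference was 0.06 ± 0.063, a ratio of 1.04 with a 95% interval of 0.937 to 1.16. Igfbp4, a secreted protein that binds IGF and limits its action, was lower on every JG-98 array, at 9.55, 9.60 and 9.61, against 9.92, 9.88 and 9.89 in the Control group. Its log2 difference was -0.31 ± 0.061 (limma adjusted p = 0.28), and it passed with the intensity trend (adjusted p = 0.0046). The receptor gene Igf1r differed by -0.19 ± 0.10, with overlapping groups.

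Hgf, hepatocyte growth factor, which makes epithelial cells divide and scatter, had log2 values of 6.39, 6.34 and 6.12 on the JG-98 arrays, against 6.50, 6.48 and 6.57 on the Control arrays. The groups did not overlap, but the gap was only 0.09. The log2 difference was -0.23 ± 0.089, a ratio of 0.853 with a 95% interval of 0.735 to 0.989 (limma adjusted p = 0.57). JG-98 replicate 3 was the lowest array, and without it the difference was -0.15 (limma adjusted p = 0.48). Met, the receptor of HGF, was at log2 means of 3.09 with JG-98 and 2.95 in the Control group, below the array medians.

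Tgfb1, which curbs inflammation and drives matrix production, had log2 values of 10.14, 10.24 and 10.20 on the JG-98 arrays and 10.07, 10.10 and 10.16 on the Control arrays. JG-98 replicate 1 lay below Control replicate 3, and the difference was 0.08 ± 0.066 with a 95% interval of -0.07 to 0.24. Its receptor genes Tgfbr1 and Tgfbr2 differed by -0.11 ± 0.071 and -0.05 ± 0.064. Of 24 genes listed as receptors of these factors and their relatives, 0 passed in limma. An unadjusted p under 0.05 was seen in 2 of the 24, beside 8.32% of all probe sets. Both were lower: Eng, a TGF-beta co-receptor, at -0.20 ± 0.059, and Itga9, an integrin chain that binds osteopontin, at -0.26 ± 0.099.

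Of 15 genes listed as targets of TGF-beta signalling, 4 were higher on every JG-98 array than on any Control array and none was lower on every one. Over all probe sets, the share higher in this way was 7.12%. Id1 and Id2, inhibitors of basic helix-loop-helix factors that are also targets of BMP signalling, had log2 differences of 0.48 ± 0.075 and 0.25 ± 0.063 (limma adjusted p = 0.20 and 0.38). The remaining ones were Bhlhe40, a transcriptional repressor, at 0.31 ± 0.092, and Skil, a negative regulator of SMAD proteins, at 0.26 ± 0.093. With the intensity trend, Id1 and Id2 passed (adjusted p = 0.0086 and 0.014). Id3, a further Id gene on the list, went the other way, at -0.12 ± 0.079 with overlapping groups. Tgfbi and Smad7, also on the list, differed by -0.04 ± 0.063 and 0.10 ± 0.088, and the median of the list was 0.05.

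Thbs1 showed the largest difference of the 10 genes in size. Its log2 values were 5.39, 5.65 and 5.33 on the JG-98 arrays, against 6.20, 6.35 and 5.84 on the Control arrays. All JG-98 arrays were below all Control arrays, with a gap of 0.19, and the Control arrays were spread more widely than for any other of the 10 genes (SD 0.26). The log2 difference was -0.67 ± 0.15 (SE, n = 3 per group), a ratio of 0.627 with a 95% interval of 0.488 to 0.806 (limma adjusted p = 0.35). Leaving out 1 array gave -0.82 without Control replicate 3 and -0.56 without Control replicate 2 as the extremes. Thbs1 did not pass in any of 19 other settings in which it was tested, with adjusted p from 0.057 to 0.76.

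The relatives and receptors of thrombospondin-1 did not show the same. Thbs2 and Thbs3 differed by 0.22 ± 0.20 and -0.26 ± 0.16 with overlapping groups, and Thbs4 by 0.18 ± 0.063, all 3 at mean log2 levels below or near the array medians. Of 13 thrombospondins and other matricellular proteins, 0 passed, and the median was 0.0029. An unadjusted p under 0.05 was seen in 1 (Thbs4), beside 8.32% of all probe sets. The receptor genes Cd36 and Cd47 differed by 0.08 ± 0.063 and -0.13 ± 0.098. Thbs1 is also abundant in platelets. The mean log2 level of the 10 megakaryocyte and platelet markers was 3.87 to 4.11 on the JG-98 arrays and 3.90 to 4.03 on the Control arrays. Of the 10, 0 had groups that did not overlap, beside 15.6% of all probe sets. Whether platelets or their precursors had a part in the Thbs1 values was not tested. Apart from Pf4, whose means were 8.82 with JG-98 and 8.92 in the Control group, these markers lay below a mean log2 level of 5.

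Spp1 had log2 values of 10.92, 10.80 and 10.81 on the JG-98 arrays, against 10.68, 10.63 and 10.68 on the Control arrays. All JG-98 arrays were higher, with a gap of 0.12. The log2 difference was 0.18 ± 0.067, a ratio of 1.13 with a 95% interval of 1.01 to 1.26 (limma adjusted p = 0.54). Its receptor genes Cd44 and Itgav differed by -0.01 ± 0.060 and 0.05 ± 0.062, and Itgb3 by 0.13 ± 0.099, all with overlapping groups. The integrin genes Itgb5 and Itga9, also on the receptor list, differed by -0.15 ± 0.066 and -0.26 ± 0.099, without overlap. Itgb1 and Itga4 differed by 0.06 ± 0.076 and -0.03 ± 0.066, with overlap. Spp1 is also made by osteoclasts. Of 8 osteoclast markers, 0 had an unadjusted p under 0.05, beside 8.32% of all probe sets. Without overlap of the groups, 1 was lower, beside 8.44% of all probe sets. Whether osteoclasts had a part in the Spp1 values was not tested. The mean log2 level of the list was 4.71 to 4.93 on the JG-98 arrays and 4.72 to 4.80 on the Control arrays. Of these markers, Atp6v0d2 alone lay above a mean log2 level of 5.

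The window before the upstream of 2 listed Spp1 start sites, at chr5:104434861-104435110 on the plus strand, is shown for comparison with that of Plaur. It holds none of the 5 motifs searched and is therefore in lower case throughout.
Spp1: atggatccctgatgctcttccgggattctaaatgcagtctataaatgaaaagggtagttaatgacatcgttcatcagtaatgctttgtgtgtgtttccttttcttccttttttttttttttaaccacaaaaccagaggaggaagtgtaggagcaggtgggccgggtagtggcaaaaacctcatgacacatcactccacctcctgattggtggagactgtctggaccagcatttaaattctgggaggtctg
Of its bases, 43.6% are G or C, against 59.6% in the Plaur window and 72.4% in the Pdgfa window above.

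**Figure D3:**
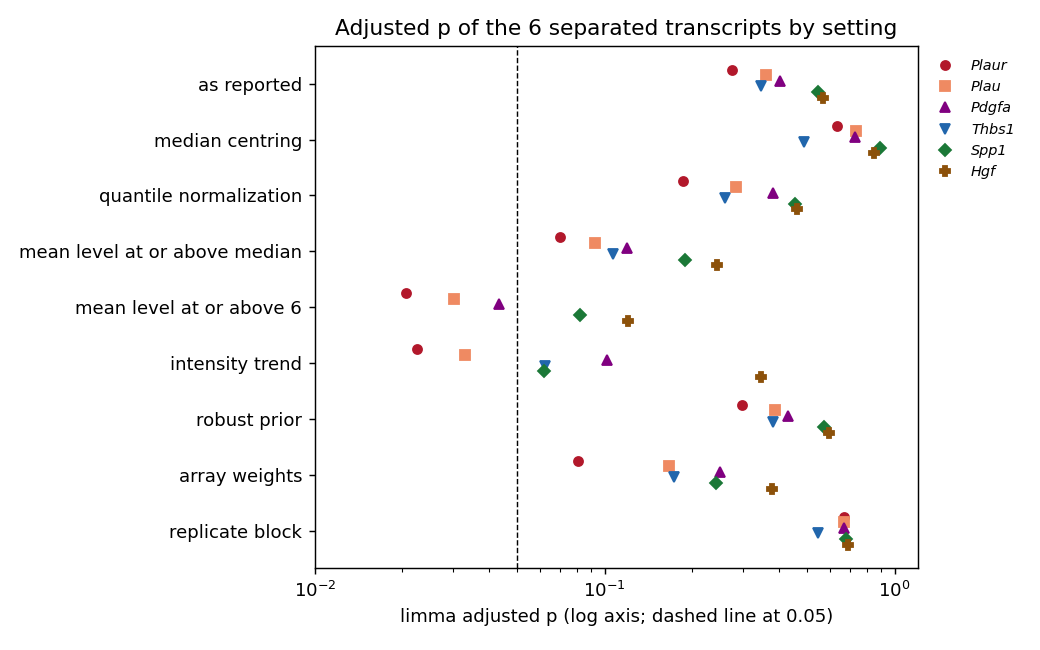
Adjusted p from limma (horizontal log axis, dashed line at 0.05) for the 6 genes whose groups do not overlap, as reported and under 8 other settings (vertical axis). Small vertical offsets keep the points apart, and Thbs1 has no point under the filter at a mean level of 6, which removed it. Plaur and Plau lie left of the line with the intensity trend, and these with Pdgfa under that filter.

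The calls of Plau and Plaur with the intensity trend did not hold when single arrays were left out. Without any one of the arrays other than JG-98 replicate 3, the adjusted p with the trend was 0.073 to 0.14 for Plaur and 0.055 to 0.14 for Plau. Without JG-98 replicate 3 it was 0.0030 and 0.036, and Spp1 then passed too (adjusted p = 0.034), while 2.1% of all probe sets were called. For any single gene, an exact two-sided permutation test of 3 against 3 arrays cannot give a p under 0.1.

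Over the 111 related genes on the 6 lists of plasminogen activation, other ligands, receptors, binding proteins, matricellular proteins and TGF-beta targets, 0 passed in limma. At an unadjusted p under 0.05, 7 were higher and 5 lower, which is 10.8% in all beside 8.32% of all probe sets. Their median difference was 0.02. Besides Vegfa and Pdgfc, the ligands with an unadjusted p under 0.05 were Gdf15, a stress-induced TGF-beta family member, at 0.59 ± 0.13, and Inhba, the activin A chain, at -0.56 ± 0.11. Inhba lay at log2 means of 3.12 with JG-98 and 3.68 in the Control group, where background is not excluded. Gdf15 had log2 values of 7.00, 7.03 and 6.77 with JG-98 and 6.52, 6.41 and 6.09 in the Control group, with no overlap. Among 23 binding and activating proteins, Igfbp4 was the 1 with an unadjusted p under 0.05, beside 8.32% of all probe sets.

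**Figure D4:**
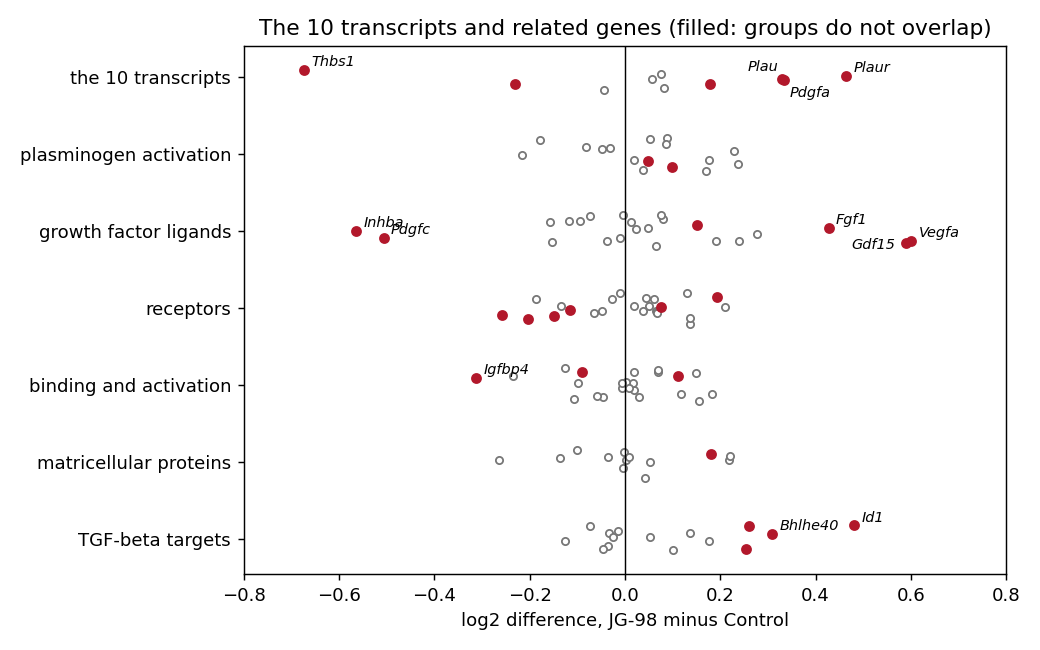
Log2 difference, JG-98 minus Control (horizontal axis), for the 10 genes and for the related genes by list (vertical axis, points offset to keep them apart). Filled points are genes whose groups do not overlap, and those over 0.3 in size are named. Vegfa, Gdf15, Id1 and Plaur lie farthest to the right and Thbs1, Inhba and Pdgfc farthest to the left.

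The genes with the profile most like that of Plaur across the 6 arrays were Gnl3, Gm13552 and Gbe1. Gnl3, a nucleolar protein, differed from the Plaur profile by a mean of 0.019 on the log2 scale, each gene taken relative to its own mean, and its own difference was 0.45 ± 0.092. The 12187 candidates were the other named probe sets at or above the median mean level. For Thbs1 the nearest were the lectin receptor genes Clec4a3 and Clec4a1, at mean distances of 0.088 and 0.092, and Crebrf, at 0.098. Their log2 differences were -0.50 ± 0.13, -0.68 ± 0.16 and -0.58 ± 0.16. Related Clec4a genes can share probe sequence, so these 2 may not be separate measurements.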

How the data were processed

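The values of the 6 Affymetrix arrays were deposited by the authors on the log2 scale, already summarised by probe set. Per the submitters' processing notes, RMA, affy and R 2.15.1 were used, with no role stated for any. RMA in general normalizes arrays against each other and compresses differences between dim probe sets. Each probe set carries an Entrez gene number. Symbols came from a RefSeq gene table of GRCm38.p6 through that number, for 23740 of 25206 probe sets. The platform annotation listed 23185 of these with the same symbol, and 555, among them Spp1 and Gdf15, were named through the number alone.

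Samples were grouped by their labels, 3 JG-98 and 3 Control. The two-sided test was limma's moderated one (version 3.58.1, R 4.3.3) with no covariate, fitted to all 25206 probe sets, with Benjamini-Hochberg adjustment over them and a threshold of 0.05. Differences are JG-98 minus Control, with moderated SE. The number of arrays limits the precision. On simulated data for this comparison, run on 25206 probe sets, 17.0% of simulated log2 changes of 0.5 were recovered, 76.3% of those of 1 and 94.8% of those of 2. The simulation changed only a small part of the probe sets and drew each spread from limma's prior regardless of level. Its shares therefore need not hold for these 10 genes.

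The 10 genes and the lists were chosen with earlier results of these data known. All 10 genes are named, then the genes of each list with the smallest p, direct receptors, inhibitors and family members, and the nearest profiles of the member with the smallest p in each direction. Trib3, a check of the treatment, had log2 means of 6.88 with JG-98 and 5.30 in the Control group. Hspa8, an Hsp70 gene, differed by 0.01 ± 0.076 and Csf1r, a macrophage receptor, by -0.09 ± 0.061. Lyz2, a macrophage marker, is not analysed here. Other settings were quantile normalization, median centring, a robust prior, an intensity trend, filters at the median level and at a level of 6, array weights (statmod 1.5.0), the replicate number as a block and leaving out each array. The trend combined with leaving out each array was added after seeing the data.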

Additional observations from a re-analysis of the deposited data

How the results depend on the processing

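Under 20 other settings, and 19 for Thbs1, which the filter at a mean level of 6 removed, the 10 genes kept the direction of their difference. None of them passed except in 3 settings. With the filter at a mean level of 6, 3 of the 10 passed, namely Plaur (0.46), Plau (0.33) and Pdgfa (0.33). With the intensity trend 2 passed, Plaur (0.46) and Plau (0.33). With that trend and without JG-98 replicate 3, 3 passed, namely Plaur (0.54), Plau (0.32) and Spp1 (0.20), and over all fits without 1 array the count was 0 to 3. The differences over these fits were 0.42 to 0.54 for Plaur, 0.28 to 0.37 for Plau and 0.14 to 0.20 for Spp1. The number of the 10 whose groups do not overlap was 7 to 8 with 1 array left out, since fewer arrays have to be separated.

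Probe sets called over the whole table were 90 with the filter at the median level, 385 with the filter at 6, 254 with the trend, 25 with array weights and 0 with the replicate block. Without 1 array they were 0 to 5. With the trend and without Control replicates 1, 2 and 3 in turn they were 89, 36 and 64, and without JG-98 replicates 1, 2 and 3 in turn 73, 108 and 529. Of the 111 related genes, the counts called were 3, 7, 5 and 1 with the filter at the median, the filter at 6, the trend and array weights. Without 1 array, with or without the trend, they were 0 to 7, and the number with an unadjusted p under 0.05 was 10 to 19. The filters left fewer tests, and the fits without 1 array fewer arrays. Under the filter at 6 the SE also changed, for Plaur to 0.074 from 0.089 as reported. The causes of the different counts were not tested.

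The groups share replicate numbers, but no label says what a number stands for. Same-numbered arrays deviated from their group means with correlations of 0.095, -0.13 and 0.10, and JG-98 replicate 2 correlated best with Control replicate 1 (0.20), so the pairing was not borne out. With the replicate block, the differences were the same, no gene of the 10 passed, and the adjusted p of Plaur was 0.67. Values below the array medians of about 4 cannot be told from background.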
